A study of Homo sapiens with 2 samples.

Results

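The genes described here are those of the cornified envelope, the protein shell of the outermost squamous cells, and the S100A genes, and most of them lie together in the epidermal differentiation complex on chromosome 1. They were taken by symbol: every probe set whose single gene symbol was SPRR, LCE or S100A followed by a number, or IVL, FLG, CRNN, TGM1, TGM3, CSTA, PI3, CNFN, PPL or EVPL. This gave 46 probe sets of 37 genes, out of 19735 genes measured. They were 7 SPRR genes, 4 LCE genes, 16 S100A genes and 10 other envelope genes, and 30 of the 37 lie on chromosome 1. Total RNA came from HARA-B4, a subline that metastasises strongly to bone, and from HARA, the established human squamous lung cancer line it was made from. Both lines were untreated, were kept in 1 serum-containing medium with antibiotics, and shared 1 protocol of RNA extraction and labelling. Each line was measured on 1 Affymetrix array, with no replicates. No p-value is therefore given, values are sizes of difference between 2 arrays, and the number of arrays limits their precision. How the subline was selected and whether it is 1 clone is not stated in the labels.

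In the last steps of squamous differentiation, involucrin, envoplakin and periplakin line the inside of the cell membrane. Transglutaminases then cross-link small proline-rich proteins (SPRR), loricrin and late cornified envelope proteins (LCE) to that scaffold. The S100A genes, in the same cluster, encode small calcium-binding proteins, several of which bind annexins at membranes. Squamous lung cancers often keep parts of this programme.

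Values are probe set signals as deposited, and differences are log2 signal in HARA-B4 minus that in HARA. Each gene is represented by whichever of its probe sets was brightest on average over both arrays. Background, a signal of 27.1, was the 95th percentile of 165 probe sets for genes of smell, taste and vomeronasal receptors. With 1 array per line, the only spread available was that between probe sets of the same gene. Such probe sets read the same RNA on the same arrays. Their spread therefore leaves out variation of culture, extraction and array. Differences within a gene had an SD of 0.30 over 4830 genes, with 0.33 among dimmer and 0.24 among brighter genes. Markers fitted the labelled squamous type: the basal keratin KRT5 was at 4504 in HARA-B4 and 4723 in HARA, and KRT14, its partner, 7345 in HARA-B4 and 3938 in HARA. The desmosomal cadherin DSG3 was at 2098 in HARA-B4 and 2967 in HARA, while KRT6A, KRT6B, KRT17 and TP63 were not analysed here. Of 4 glandular lung markers NAPSA was at background on both arrays, SFTPC passed background in HARA only, and NKX2-1 and SFTPB had signals between 41.9 and 58.6.

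Of the 37 genes, 18 were above background on both arrays, 2 on the HARA-B4 array only, 0 on the HARA array only and 17 on neither. Among the 18, a 2-fold higher signal in HARA-B4 was found for 4 and a 2-fold lower one for 0. Over all 10202 genes above background on both arrays, 3.13% were at least 2-fold higher and 3.57% at least 2-fold lower. The 4 were SPRR1B, SPRR2B, SPRR1A and S100A6. The median difference of the 18 genes was 0.39, against 0.02 over all genes, and 13 of the 18 had a positive difference, against 52.2% of all genes. Differences of the 18 ran from -0.94 for CSTA to 2.63 for SPRR1B. IVL and LCE3D, the genes above background in HARA-B4 only, could pass only as higher, and their folds are lower bounds. Counted with them, 6 of 20 genes were higher, where 3.62% of the 11489 genes above background on at least 1 array were higher and 4.20% lower. At 1.5-fold, 10 of the 20 were higher and 2 lower (CSTA and S100A2), against 10.2% and 11.0% of all genes. In these bulk samples, a larger share of cells using a gene and more RNA per cell cannot be told apart.

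**Figure D1:**
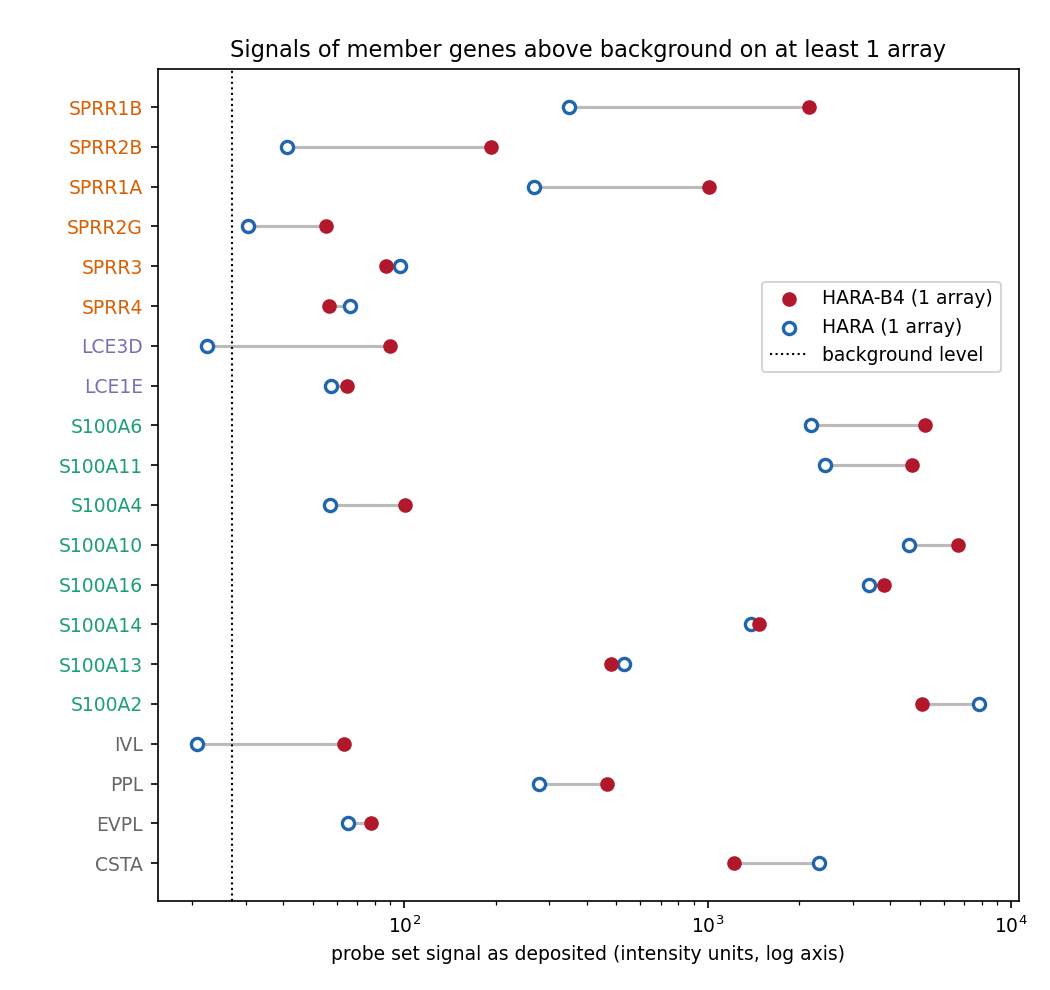
Signal of each gene above background on at least 1 array (horizontal log axis, intensity units), with HARA-B4 as filled and HARA as open circles, 1 array each, and the background level of 27.1 as a dotted line. Name colours mark SPRR, LCE, S100A and other envelope genes. SPRR1B, SPRR2B, SPRR1A, LCE3D, S100A6 and IVL have the widest gaps, all with HARA-B4 to the right.

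The SPRR genes differed most among the families. Of the 6 above background 3 passed 2-fold, all as higher, against 3.13% of all genes above background on both arrays. SPRR1B, cornifin B, a precursor that transglutaminases cross-link into the envelope, had a signal of 2154 in HARA-B4 and 349 in HARA. The difference was 2.63, a 6.17-fold higher signal, and 14 of the 10202 genes had a larger one. SPRR1A, the closely related cornifin A, was measured by 2 probe sets. They gave 1011 in HARA-B4 against 268 in HARA, and 579 in HARA-B4 against 151 in HARA. The differences were 1.92 and 1.94, of about the same size. The name of the second ends in _x_at, a class that can match several related transcripts, so part of its signal may not be from SPRR1A. SPRR2B, an envelope precursor of the SPRR2 group, was at 193 in HARA-B4 and 41.0 in HARA, a difference of 2.23 that 32 genes exceeded. Its probe set name ends in _x_at as well. SPRR2A, SPRR2D, SPRR2E and SPRR2F had no probe set of their own among the members, so the SPRR2B signal cannot be told apart from theirs.

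The other SPRR genes were dim and differed less. SPRR2G was at 55.3 in HARA-B4 and 30.6 in HARA, close to background, with a difference of 0.85. SPRR4 was at 56.7 in HARA-B4 and 66.1 in HARA (-0.22). SPRR3, esophagin, an abundant SPRR protein of the oesophageal lining, was measured by 2 probe sets that differed in sign. The brighter gave 86.9 in HARA-B4 and 96.9 in HARA (-0.16), and the other 103 in HARA-B4 and 53.6 in HARA (0.93). The direction of SPRR3 is therefore not settled by these arrays. SPRR2C, a pseudogene, was at background on both arrays. Over the 6 SPRR genes above background the median difference was 1.38. Of them 3 were at least 2-fold higher and 0 lower, against 3.13% and 3.57% of all genes.

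The stretches before the start of the 4 genes with the largest differences or bounds are printed because these genes lie in 1 cluster and differed in the same direction. They are the 250 bases before the RefSeq start (GRCh38.p14), 5′ to 3′ on the strand of the gene. They come from chr1:153030953-153031202 (+ strand) for SPRR1B, chr1:152983831-152984080 (+) for SPRR1A, chr1:153071612-153071861 (- strand) for SPRR2B and chr1:152580517-152580766 (-) for LCE3D. Capitals mark TGANTCA, the letters of an AP-1 site, and TATAAA, each searched on both strands.
SPRR1B: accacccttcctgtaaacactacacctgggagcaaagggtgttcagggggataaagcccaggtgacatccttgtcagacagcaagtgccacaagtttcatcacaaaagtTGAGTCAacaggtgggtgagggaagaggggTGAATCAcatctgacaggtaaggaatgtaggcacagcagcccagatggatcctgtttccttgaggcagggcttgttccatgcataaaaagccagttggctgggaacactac
SPRR1A: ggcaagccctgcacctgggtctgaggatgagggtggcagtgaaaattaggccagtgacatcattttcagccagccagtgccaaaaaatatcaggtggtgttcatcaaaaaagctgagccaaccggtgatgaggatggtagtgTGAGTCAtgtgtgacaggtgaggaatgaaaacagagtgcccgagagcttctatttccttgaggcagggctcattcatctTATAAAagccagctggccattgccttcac
SPRR2B: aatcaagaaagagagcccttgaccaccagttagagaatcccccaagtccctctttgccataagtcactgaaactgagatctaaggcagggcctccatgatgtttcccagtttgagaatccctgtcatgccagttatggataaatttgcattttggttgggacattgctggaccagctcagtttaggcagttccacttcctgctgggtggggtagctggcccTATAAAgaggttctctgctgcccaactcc
LCE3D: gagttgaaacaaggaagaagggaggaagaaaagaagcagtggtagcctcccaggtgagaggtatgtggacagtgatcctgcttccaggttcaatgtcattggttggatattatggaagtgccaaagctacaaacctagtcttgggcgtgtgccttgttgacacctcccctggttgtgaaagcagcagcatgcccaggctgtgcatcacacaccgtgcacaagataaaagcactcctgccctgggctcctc

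SPRR1B held TGANTCA at -141 to -135 and at -111 to -105, counted from the first base before the start as -1. SPRR1A held it once, at -108 to -102, and TATAAA at -29 to -24. SPRR2B held TATAAA at the same place and no TGANTCA in this window, and LCE3D neither. Aligned end to end with gaps, SPRR1B and SPRR1A had identical bases amounting to 72.4% of 250, and the other 5 pairs of these sequences 58.4% to 63.2%. The alignment paired 225 bases for SPRR1B with SPRR1A and 200 to 205 for the other pairs. No baseline from other promoters is given, so these values alone do not show related sequences. Promoters of 30 of the 37 genes were in the RefSeq table. TGANTCA was in 10 of these 30 (33.3%), against 6.57% of 35114 promoter sequences of the same length. TATAAA was in 16 of the 30 (53.3%), against 10.7%. TGANTCA was in 3 of the 6 genes that were higher in HARA-B4 (IVL held the third), in 3 of 11 above background that were not, and in 4 of 13 at background. The shorter strings were common throughout: GGAA, the core of ETS sites, was in 29 of the 30 and 92.7% of all, and CACCC in 23 of the 30 and 54.7% of all. The capitalised strings do not overlap in the 4 printed sequences. A match describes letters and is not a site shown to be bound.

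Of the LCE genes, which encode late proteins of the hardened layer, LCE3D was the one past 2-fold. Its signal was 89.8 in HARA-B4 and 22.4 in HARA, below background there, so it was at least 3.31-fold higher in HARA-B4. Its only probe set ends in _s_at, a class shared by several transcripts. LCE1E was at 64.6 in HARA-B4 and 57.4 in HARA by an _x_at probe set (0.17), while its other probe set, at 8.53 in HARA-B4 and 22.8 in HARA, was at background on both. LCE1B and LCE2B were at background on both arrays.

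Among the scaffold proteins, involucrin was the one past 2-fold. IVL, which encodes it, had a signal of 63.4 in HARA-B4 and 20.7 in HARA, at background there, and was at least 2.34-fold higher in HARA-B4. Periplakin (PPL), a plakin that links the envelope to desmosomes and intermediate filaments, was at 465 in HARA-B4 and 278 in HARA (0.74). Its partner envoplakin (EVPL) was at 77.9 in HARA-B4 and 65.5 in HARA (0.25), within the within-gene SD of the dimmer genes. Cystatin A (CSTA), a cysteine protease inhibitor that is also an envelope component, went the other way, at 1217 in HARA-B4 and 2328 in HARA. Its difference of -0.94 lay just short of 2-fold and was the lowest among the members above background.

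The transglutaminases among the members, TGM1 and TGM3, and several late markers were not above background in either line. TGM1, the membrane-bound keratinocyte transglutaminase, had a signal of 2.001 in HARA-B4 and 5.51 in HARA. TGM3, the epidermal transglutaminase, was at 16.9 in HARA-B4 and 5.51 in HARA. TGM2, the tissue transglutaminase, is no member and was named after its values were seen. It was at 52.7 in HARA-B4 and 3.24 in HARA, below background there, and so at least 1.94-fold higher. Filaggrin (FLG), which bundles keratin filaments, was at 4.04 in HARA-B4 and 8.66 in HARA, and cornulin (CRNN), a late marker of the oesophageal type of squamous lining, at 4.28 in HARA-B4 and 1.21 in HARA. Cornifelin (CNFN) and elafin (PI3), an elastase inhibitor, were at background as well. No fold is given for these genes. A signal at background bounds the level and does not show that a transcript is absent.

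The S100A genes were in part very bright, and 1 of 8 above background passed 2-fold. Over all genes above background on both arrays 3.13% were higher and 3.57% lower. A count of 1 among 8 is too small to set the family apart from that share. S100A6, calcyclin, a calcium sensor of proliferating cells, was at 5191 in HARA-B4 and 2194 in HARA, a 2.37-fold higher signal (1.24), and 194 genes had a larger difference. Its second probe set, at 10.2 in HARA-B4 and 12.8 in HARA, was at background on both arrays. With the mean over both probe sets the difference was 0.46, short of 2-fold. S100A11, which binds annexin A1, was at 4712 in HARA-B4 and 2441 in HARA, and its difference of 0.95 fell just short of 2-fold. S100A4, metastasin, a gene tied to motility and metastasis in many tumours, was dim, at 100.5 in HARA-B4 and 57.1 in HARA by an _s_at probe set (0.82). S100A10, the annexin A2 partner p11, was at 6697 in HARA-B4 and 4614 in HARA (0.54), and a second, dim probe set gave 98.2 in HARA-B4 and 58.9 in HARA (0.74).

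The remaining bright S100A genes were level or lower. S100A2, a p63-regulated gene of basal squamous cells, was at 5078 in HARA-B4 and 7851 in HARA, a difference of -0.63. S100A16 was at 3818 in HARA-B4 and 3393 in HARA (0.17), and S100A14, an epithelial member of the family, at 1479 in HARA-B4 and 1387 in HARA (0.09). S100A13 had 2 probe sets of opposite sign, -0.14 at 481 in HARA-B4 and 531 in HARA, and 0.28 at 46.5 in HARA-B4 and 38.3 in HARA. The differences of S100A16, S100A14 and S100A13 were within the within-gene SD of their level. Over the 8 genes the median was 0.35, with 6 positive and 2 negative.

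The other 8 S100A genes were not above background, including its inflammatory members. S100A8 and S100A9, which form calprotectin in neutrophils and in activated keratinocytes, were at 21.0 and 17.5 in HARA-B4, against 10.1 and 2.96 in HARA. S100A7, psoriasin, was at 2.44 in HARA-B4 and 1.52 in HARA, and S100A12, a granulocyte gene, at 1.39 in HARA-B4 and 6.50 in HARA. S100A7A, S100A1, S100A3 and S100A5 were also at background. Over all 17 members at background, signals ran from 1.24 to 22.5 in HARA-B4 and from 0.813 to 16.2 in HARA. Of 11 myeloid markers measured, 0 were above background on both arrays, with a summed signal of 88.9 in HARA-B4 and 119 in HARA. ITGAM just passed background in HARA-B4 (28.6) and CSF1R in HARA (27.4), and LYZ was at 2.18 in HARA-B4 and 2.12 in HARA.

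**Figure D2:**
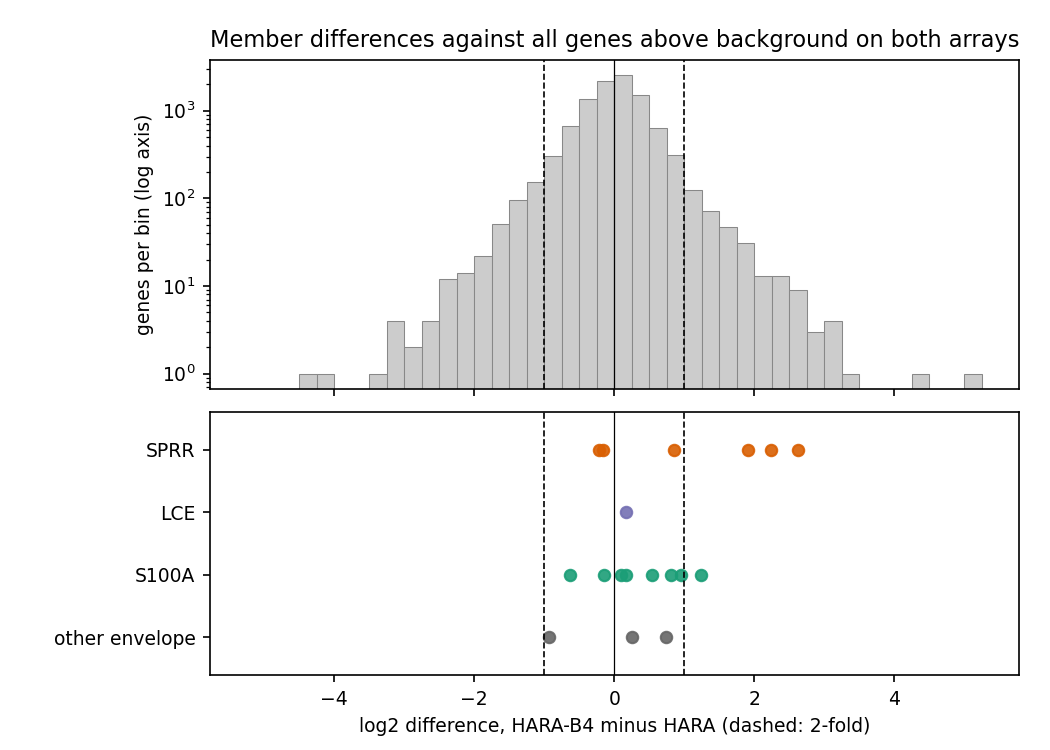
Upper panel: number of genes per 0.25 of log2 difference, HARA-B4 minus HARA, for the 10202 genes above background on both arrays (log vertical axis). Lower panel: the 18 members above background on both arrays by family, on the same horizontal axis, with dashed lines at 2-fold. Of the SPRR genes 3 lie right of the 2-fold line and 2 left of 0, and the S100A genes run from -0.63 to 1.24.

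Level bore on these counts in all genes. Genes whose mean level was under the median of genes above background on both arrays, a signal of 231, were at least 2-fold higher in 4.59% and lower in 5.42%. Those at or over it were higher in 2.41% and lower in 2.69%. Among the members, 3 of 9 dimmer genes (SPRR2B, IVL and LCE3D) and 3 of 11 brighter genes (SPRR1B, SPRR1A and S100A6) were higher. Of 9 member genes with several probe sets, 4 had more than 1 above background on both arrays. SPRR1A and S100A10 kept their sign across probe sets, and SPRR3 and S100A13 did not.

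The 6 members past 2-fold all lay in the chromosome 1 cluster, and the 25 genes nearest to it on either side that were above background on both arrays stayed within 2-fold. In RefSeq order the members on chromosome 1 run from S100A10 to S100A1, a span of 94 annotated genes, 63 of them protein-coding. Within it 16 genes were above background on both arrays, 15 of them members, with a median difference of 0.68, and 5 were past 2-fold upwards and 0 downwards. The gene that was no member was PRR9, a proline-rich protein gene next to the SPRR genes, at 208 in HARA-B4 and 31.1 in HARA (2.74). Its HARA signal was close to background, and it was named after its values were seen. The 25 genes before the span had a median of 0.03 and ranged from -0.95 to 0.81, and the 25 after it had a median of 0.12 and ranged from -0.33 to 0.63. On both sides 0 of 25 were past 2-fold in either direction, against 3.13% higher and 3.57% lower over all genes. For each direction, a count of 0 among 25 is near that share. LYSMD1, RFX5-AS1 and IL6R, which lie among the flanking genes, were above background in HARA only. Their bounds are short of 2-fold, so their size is not settled. IL6R was at 14.9 in HARA-B4 and 45.2 in HARA. Chromosome 1 outside the span had 1015 genes with a median of 0.05, of which 43 were higher and 20 lower.

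**Figure D3:**
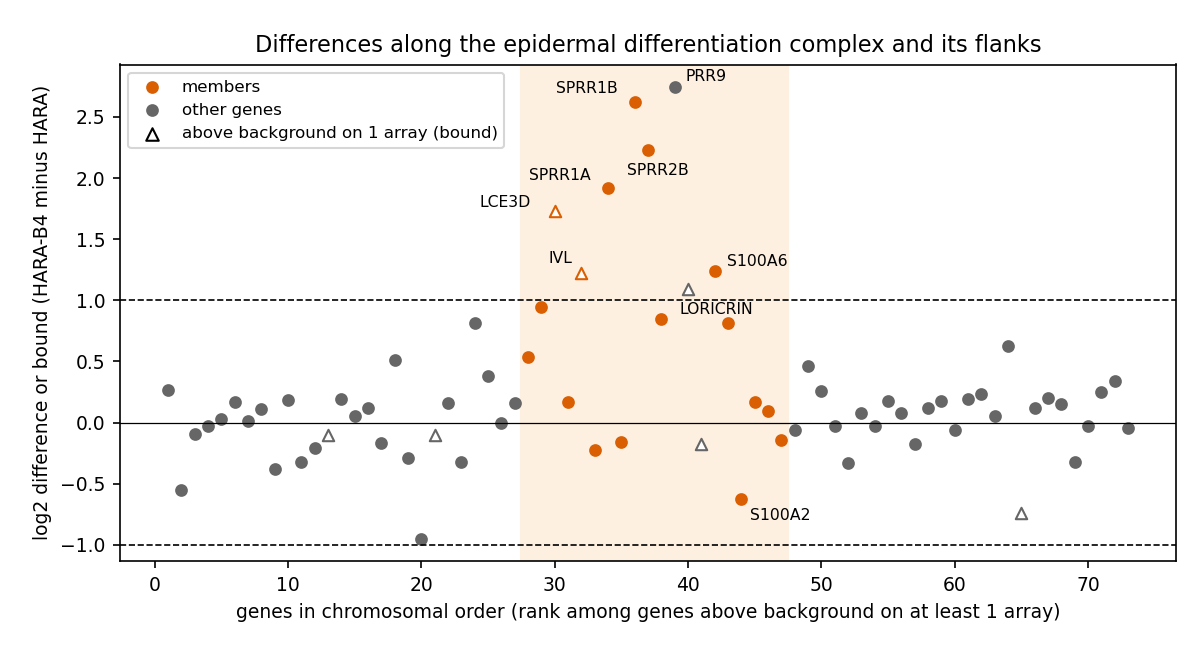
Log2 difference or bound, HARA-B4 minus HARA (vertical axis), of genes in chromosomal order by rank, for the shaded span from S100A10 to the last S100A gene above background and for its flanks. Orange marks members, grey other genes, triangles genes above background on 1 array, and dashed lines 2-fold. SPRR1B, PRR9, SPRR2B and SPRR1A stand above 1.9, while all 50 flanking genes above background on both arrays stay within 2-fold.

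The span was itself uneven. From LCE3D to S100A6 the order ran LCE3D (at least 3.31-fold higher), LCE1E (0.17), IVL (at least 2.34-fold), SPRR4 (-0.22), SPRR1A (1.92), SPRR3 (-0.16), SPRR1B (2.63), SPRR2B (2.23) and SPRR2G (0.85). PRR9 (2.74) and loricrin (LORICRIN) came next, and then PGLYRP4, which was just above background in HARA only. LORICRIN, the main envelope protein of skin, was at 57.7 in HARA-B4 and 2.76 in HARA, and so at least 2.13-fold higher. SPRR4, with a difference near 0, thus lay between IVL and SPRR1A, both past 2-fold. Of the 7 members on other chromosomes, 4 were at background and could not be called. The 3 above background, PPL, EVPL and CSTA, included 0 past 2-fold. Over all genes above background on both arrays 3.13% were higher and 3.57% lower. A count of 0 among 3 is near that share and does not set the cluster apart from these genes.

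Other late differentiation genes were next set beside the members. Of 52 listed, 48 were measured and 22 were above background on at least 1 array. Of these 22, 5 were past 2-fold upwards in HARA-B4 and 1 downwards, against 3.62% and 4.20% of all genes. Of the 5, KRT1, SCEL and LORICRIN passed background on the HARA-B4 array alone, so they could pass only as higher. Among the 12 above background on both arrays 2 were higher and 1 lower, against 3.13% and 3.57% of all genes. CALML3, a calmodulin-like protein of squamous epithelium, was at 1321 in HARA-B4 and 151 in HARA (3.13), and KRT13, a suprabasal keratin of moist linings, at 983 in HARA-B4 and 330 in HARA (1.58). KRT1, the suprabasal keratin of skin, was at 133 in HARA-B4 and 14.6 in HARA, at least 4.92-fold higher. Sciellin (SCEL), another envelope precursor, was at 90.4 in HARA-B4 and 14.3 in HARA, at least 3.33-fold higher, and LORICRIN is given above. The kallikrein KLK10 was the lower gene, at 267 in HARA-B4 and 981 in HARA (-1.88). The CALML3 probe set ends in _x_at, and those of KRT13, SCEL and KLK10 end in _s_at. Part of the signal of these genes may therefore come from other transcripts. The 2 brightest, KRT10 and stratifin (SFN), differed by 0.99 and 0.08. The median of the 12 above background on both arrays was 0.16.

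Of 23 basal and activated keratinocyte genes listed, 16 were above background on both arrays. LAMA4, a laminin gene analysed with them, was at background on both, at 27.0 in HARA-B4 and 16.6 in HARA. Of the 16, 4 were higher and 0 lower, against 3.13% and 3.57% of all genes, with a median of 0.56. The 4 were KRT15 (454 in HARA-B4, 114 in HARA), plakophilin PKP1 (672 in HARA-B4, 191 in HARA), KRT16 (149 in HARA-B4, 66.8 in HARA) and plakoglobin JUP (1718 in HARA-B4, 801 in HARA). The JUP probe set ends in _s_at, so part of its signal may come from other transcripts. The brightest, KRT14 and PERP, differed by 0.90 and 0.43. Of the 16, 11 had a positive difference and 5 a negative one. The lowest was DSC3, at 915 in HARA-B4 and 1807 in HARA (-0.98). Its 3 probe sets ran from -1.36 to -0.85, so whether it passed 2-fold depended on the probe set.

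Of 49 transcription factors of keratinocyte differentiation, 45 were measured and 36 were above background on at least 1 array. At least 2-fold higher in HARA-B4 were 5, against 3.62% of all genes, and 0 were lower, against 4.20%. Of the 5, GATA3, ZNF750 and MAF passed background on the HARA-B4 array alone, so they could pass only as higher. Among the 31 above background on both arrays 2 were higher and 0 lower, against 3.13% and 3.57% of all genes, with a median of 0.10. KLF4, a zinc-finger factor needed for the skin barrier, was at 663 in HARA-B4 and 174 in HARA (1.93). GRHL1, a grainyhead factor of desmosomal genes, was at 262 in HARA-B4 and 84.1 in HARA (1.64), with 0.85 by its second probe set. GATA3 was at 174 in HARA-B4 and 9.85 in HARA, at least 6.40-fold higher. ZNF750, a factor of terminal differentiation, was at 72.5 in HARA-B4 and 21.0 in HARA, at least 2.67-fold higher, and MAF at 65.8 in HARA-B4 and 2.01 in HARA, at least 2.43-fold higher. The probe sets of KLF4, GATA3 and ZNF750 end in _s_at, so part of their signal may come from other transcripts. The brightest, NFE2L2 and KLF5, differed by 0.11 and 0.20. AP-1 subunits were named after their values were seen. By their brightest probe sets FOSL1 (0.10), FOSL2 (-0.02), JUNB (-0.04) and JUND (-0.08) differed little, and FOS and FOSB were at background on both arrays. JUN had 0.51 by its brightest probe set, and its 4 probe sets above background ran from 0.25 to 1.13, so whether it passed 2-fold depended on the probe set.

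Of 13 annexins and other partners or receptors of S100 proteins above background on both arrays, 0 were 2-fold higher or lower, with a median of 0.05. Over all genes 3.13% were higher and 3.57% lower, so a count of 0 among 13 is near that share. AGER, above background in HARA-B4 only, and ANXA6, in HARA only, had bounds of 1.10-fold and 1.11-fold, which do not settle their size. ANXA2, the partner of S100A10, was at 6923 in HARA-B4 and 6674 in HARA (0.05), and ANXA1, a partner of S100A11, at 3699 in HARA-B4 and 4198 in HARA (-0.18). Of 4 S100 genes outside the chromosome 1 cluster, S100P was above background in HARA only, at 11.2 in HARA-B4 and 126 in HARA, and so at least 4.64-fold lower in HARA-B4. S100P could therefore pass only as lower, as did 4.20% of all genes above background on at least 1 array. S100B, S100G and S100Z were at background on both arrays. A list of 10 airway and lung markers held the 4 glandular lung markers given above. Of the 10, 7 were at background on both arrays, among them SCGB1A1, SCGB3A1, MUC5AC, MUC5B, BPIFA1 and FOXJ1. Of the other 3, NKX2-1, SFTPB and SFTPC, 0 passed 2-fold, against 3.62% higher and 4.20% lower over all genes. The summed signal of the 10 was 194 in HARA-B4 and 198 in HARA, of which the 4 glandular markers gave 144 in HARA-B4 and 156 in HARA.

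**Figure D4:**
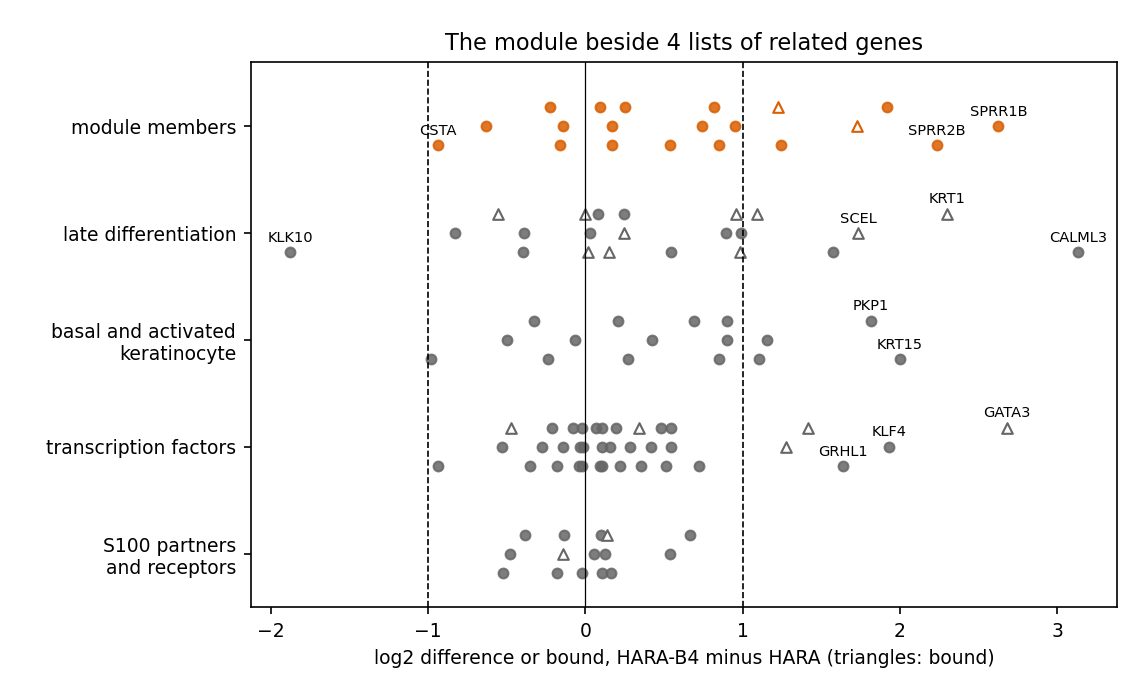
Log2 difference or bound, HARA-B4 minus HARA (horizontal axis), of each gene above background on at least 1 array in the members (orange) and in 4 lists of related genes (grey), with triangles for bounds and dashed lines at 2-fold; vertical offsets within a row carry no value. Right of the 2-fold line lie 6 of 20 members, 5 of 22 late differentiation genes and 4 of 16 basal genes. So do 5 of 36 transcription factors and 0 of 15 S100 partners, against 3.62% of all genes. A count of 0 among 15 is near that share. Triangles right of the line are genes above background in HARA-B4 only, which could pass only as higher.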

How the data were processed

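The authors deposited linear intensities, 1 per probe set and array, made with Affymetrix Expression Console, per the submitters' processing notes. How that tool summarised, background-corrected and scaled the probes is not stated, nor are its version or detection calls. The deposited values were taken to log2 with no further scaling. Of 54675 probe sets, 41097 had 1 gene symbol, 1801 several and 11777 none in the platform annotation, and 41043 were matched by Entrez ID to RefSeq (GRCh38.p14), giving 19735 genes. Promoter sequences are RefSeq's. Genes above background on 1 array were set against the background level. Analysis used Python 3.11.15 with numpy 2.4.6, pandas 2.3.3, scipy 1.17.1 and biopython 1.88.

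Every member above background on at least 1 array is named. From each other list the genes at 2-fold and the 2 brightest are named. The members and lists were chosen with earlier results of these data known. The code for the calls was run on simulated data: of 200 bright genes changed 4-fold among 19735, 100.0% were recovered, and 0.0454% of the others above background were called. The simulated noise was close to the within-gene SD and the same at every level, and the changed genes lay far above background. High recovery and few other calls were therefore built in. They check the code and give no error rate for calls on the real arrays. Alternatives were 3 other normalizations, 3 background settings, averages over a gene's probe sets, removal of _x_at and _s_at probe sets, log2(signal + 16), 1.5-fold and 3-fold, agreement of probe sets, and means for medians.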

Additional observations from a re-analysis of the deposited data

How the results depend on the processing

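The count of 6 members higher in HARA-B4 ranged from 4 to 6 under 10 of 12 alternatives and became 14 with no background filter, where 4 were lower and 11.5% of all genes were higher and 12.9% lower, and 10 at 1.5-fold, where 2 were lower and 10.2% of all genes were higher and 11.0% lower. Quantile normalization made 1 member lower, CSTA. SPRR1A, SPRR1B and SPRR2B kept their calls in all 12 except SPRR2B without _x_at and _s_at probe sets, where it had no value. IVL and LCE3D were lost with a higher background, IVL with log2(signal + 16), IVL and S100A6 at 3-fold, LCE3D without _s_at probe sets, and S100A6 with the mean of all probe sets, where its difference was 0.46. The median of the members stayed between 0.21 and 0.68. The SPRR median of 1.38 was 1.92 without _x_at and _s_at probe sets (3 genes), 2.27 with the 99th percentile as background (2 genes), 0.88 with the background raised by 1 (4 genes) and 0.85 with no filter (7 genes). The count of all genes at 2-fold, 899, was 450 with the 99th percentile, 4809 with no filter, 2444 at 1.5-fold and 296 at 3-fold. Of 168 single values of members under alternatives, 13 moved by more than the within-gene SD and 0 of the called ones changed sign. As bounds, the values of IVL and LCE3D could not change sign. Members that were not called did change sign with the mean of all probe sets: SPRR3 from -0.16 to 0.39, S100A13 from -0.14 to 0.07, and LCE1E from 0.17 to a bound of -0.42. With 1 array per line, no alternative measures biological spread.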
